A study of Mus musculus with 8 samples.

Results

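The neurotrophins and their receptors were described in the embryonic mouse cortex through 5 genes chosen by name: the ligand genes Bdnf and Ntf3 and the receptor genes Ntrk2, Ntrk3 and Ngfr. They are 5 of the 23284 gene symbols counted, and each of them was among the 14696 genes with enough reads to be tested. RNA came from dorsal cortex of C57BL/6 embryos at E15.5, in 4 libraries labelled ErbB4+/+ (wild type, WT) and 4 labelled ErbB4-/- (knockout, KO). The comparison asks how complete loss of ErbB4, a receptor tyrosine kinase for neuregulins, alters transcription in developing cortex. The paper states that mice without ErbB4 die early as embryos from heart defects. It adds that knockout studies have therefore used mice rescued by an alpha-MHC transgene, which supplies ErbB4 to the heart. The methods do not say whether the sequenced embryos carried it. If the KO embryos did, its effect cannot be told apart from that of genotype. The mouse lines were bred as separate homozygous colonies, so genotype cannot be told apart from colony or litter. The sequenced tissue was dissected to exclude the ganglionic eminences and the meninges.

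Neurotrophins are secreted proteins that keep neurons alive and shape their processes and synapses. BDNF, the product of Bdnf, binds the receptor tyrosine kinase TrkB (Ntrk2), and NT-3, the product of Ntf3, binds mainly TrkC (Ntrk3). All neurotrophins also bind p75NTR (Ngfr), a receptor of the tumour necrosis factor receptor family, and their uncleaved precursors bind it together with sortilin. Ntrk2 and Ntrk3 each make full-length receptors with a kinase domain and truncated ones without it, and a count summed over the gene does not separate these forms.

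Between 28205703 and 48871480 reads were counted per library. Erbb4, the gene targeted in the knockout, was not lower in the libraries labelled ErbB4-/- (20.7 to 24.6 CPM, reads scaled to a common library size with edgeR's TMM factors) than in those labelled ErbB4+/+ (8.99 to 25.3), so every direction below is one between labels. In edgeR's quasi-likelihood fit it differed by 0.28 ± 0.23 (SE) on the log2 scale, KO over WT, at an adjusted p of 0.812. Without WT replicate 1, the library with 8.99 CPM, this was 0.06, and without WT replicate 3 it was 0.48. From quantitative RT-PCR with more samples per group, the paper reports higher GFAP mRNA in ErbB4-/- than in ErbB4+/+ cortex at E15.5. In the read counts, Gfap averaged 1.51 CPM in the libraries labelled ErbB4-/- and 0.738 CPM in those labelled ErbB4+/+, with overlapping groups. Its log2 fold change was 1.04 (unadjusted p = 0.00454, p adjusted over all tested genes = 0.810, edgeR). WT replicate 1 stood apart from the other libraries on the first principal component (-38.9 against -6.07 to 15.48). Its deviation from the gene means had a Spearman correlation of -0.58 with transcript length and -0.43 with the genomic span of the gene, over 14395 genes, while the correlations with length in the other 7 libraries were from 0.04 to 0.22. Xist, transcribed from the inactive X chromosome of females, was at 983 to 1687 CPM in WT replicates 1, 2 and 3 and at 2.70 to 3.82 CPM in WT replicate 4 and all 4 KO libraries. The Y-linked gene Ddx3y had the reverse pattern, at 0.257 to 0.495 CPM in the first 3 libraries and 76.4 to 80.9 CPM in the other 5. The comparison of labels was therefore largely one of a female against a male pattern, with WT replicate 4 the only WT library that shared the pattern of the KO libraries. The cortical neuron markers were abundant, with a summed level of 7155 to 7337 CPM in WT libraries and 7220 to 7668 CPM in KO libraries. In bulk tissue, fewer cells of a type and less RNA per cell cannot be told apart.

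In the GENCODE annotation of NCBIM37 (mm9), Bdnf lies on the plus strand at chr2:109514857-109567204 and has 10 coding transcripts with 7 start sites. Ntf3 lies on the minus strand at chr6:126051431-126116762, with 2 coding transcripts from 1 start site. No other annotated gene shares exon bases with any of the 5 genes on either strand. The counts pool the transcripts of all start sites, and the ligand promoters below are shown to make clear what a single Bdnf count combines. Each is the 250 bases before a RefSeq start (GRCm38.p6 table), placed on NCBIM37 by exact match. The first is before the most upstream Bdnf start (chr2:109514607-109514856, plus strand). The second is before an internal Bdnf start (chr2:109532343-109532592, plus strand), and the third is before the more upstream of 2 Ntf3 starts (chr6:126116763-126117012, minus strand). All are written 5′ to 3′ on the strand of the gene. Capitals mark matches on either strand to TGACG, the core of a cAMP response element, and to CACGTG, an E-box.
Bdnf, upstream start: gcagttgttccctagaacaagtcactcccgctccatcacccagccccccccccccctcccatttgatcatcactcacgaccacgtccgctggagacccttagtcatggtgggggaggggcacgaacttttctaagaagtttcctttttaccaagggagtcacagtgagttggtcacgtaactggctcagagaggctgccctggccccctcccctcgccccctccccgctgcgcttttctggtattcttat
Bdnf, internal start: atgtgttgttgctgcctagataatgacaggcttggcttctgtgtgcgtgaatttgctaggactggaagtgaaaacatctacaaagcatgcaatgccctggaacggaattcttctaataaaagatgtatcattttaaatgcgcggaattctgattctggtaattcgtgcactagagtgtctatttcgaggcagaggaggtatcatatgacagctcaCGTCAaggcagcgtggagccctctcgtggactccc
Ntf3: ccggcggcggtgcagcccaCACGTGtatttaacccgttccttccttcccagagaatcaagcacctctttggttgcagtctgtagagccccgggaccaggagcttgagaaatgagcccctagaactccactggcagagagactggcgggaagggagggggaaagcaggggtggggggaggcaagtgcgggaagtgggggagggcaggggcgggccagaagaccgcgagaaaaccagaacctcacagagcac
The internal Bdnf window holds TGACG, on the reverse strand, as 1 of 7 Bdnf windows in the table, and the Ntf3 window shown holds CACGTG, as 1 of 2 Ntf3 windows. Among all 32851 windows of the RefSeq table, 17.8% hold TGACG and 6.02% hold CACGTG, so both letter strings are frequent in windows of this length. The full palindrome TGACGTCA, found in 1.55% of windows, was in none of the 11 windows of the 4 genes with an entry. GC content was 58.0% and 45.6% in the Bdnf windows shown and 62.0% in the Ntf3 window shown, against a median of 52.4%.

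Bdnf, the gene of the main TrkB ligand, had 69 to 161 reads per library. It had 2.46, 2.73, 2.92 and 3.08 CPM in WT replicates 1 to 4 and 3.27, 2.61, 3.36 and 2.80 CPM in KO replicates 1 to 4. KO replicates 1 and 3 lay above all WT libraries, KO replicates 2 and 4 lay within their range, and the groups overlapped. WT libraries averaged 2.80 ± 0.265 CPM and KO libraries 3.01 ± 0.360 CPM (SD, n = 4 each), which edgeR fitted as a log2 fold change of 0.11 ± 0.15 (SE) with an adjusted p of 0.871. The 95% interval of the fold change ran from 0.864 to 1.34. The coefficient of variation was 9.48% in WT and 11.97% in KO libraries, close to the 9.96% that counting alone gives at these read numbers. The log2 fold change ran from 0.05 (without WT replicate 1 or KO replicate 3) to 0.17 (without KO replicate 2) with single libraries left out, and was 0.07 with each library's trend with transcript length removed and -0.03 with Xist as a covariate.

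Ntf3 varied most of the 5 genes between libraries, with 52 to 178 reads. WT replicates 1 to 4 had 3.17, 2.28, 1.90 and 1.65 CPM, and KO replicates 1 to 4 had 3.61, 1.95, 2.89 and 1.65 CPM. The highest library, KO replicate 1, was 2.19 times the lowest, and each group held both high and low libraries. WT libraries averaged 2.25 ± 0.667 CPM and KO libraries 2.53 ± 0.896 CPM (SD, n = 4 each), which edgeR fitted as a log2 fold change of 0.19 ± 0.27 (SE) with an adjusted p of 0.872 with a 95% interval of the fold change from 0.759 to 1.73. Its coefficient of variation was 29.6% in WT and 35.5% in KO libraries against a counting error of 11.3%, so its spread between libraries of one label was larger than counting alone gives. Without KO replicate 1 the log2 fold change was -0.04, and without WT replicate 1 it was 0.40. It was 0.30 without KO replicate 2, 0.34 without KO replicate 4, 0.12 without WT replicate 3 and 0.07 without WT replicate 4, and 0.54 with Xist as a covariate.

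**Figure D1:**
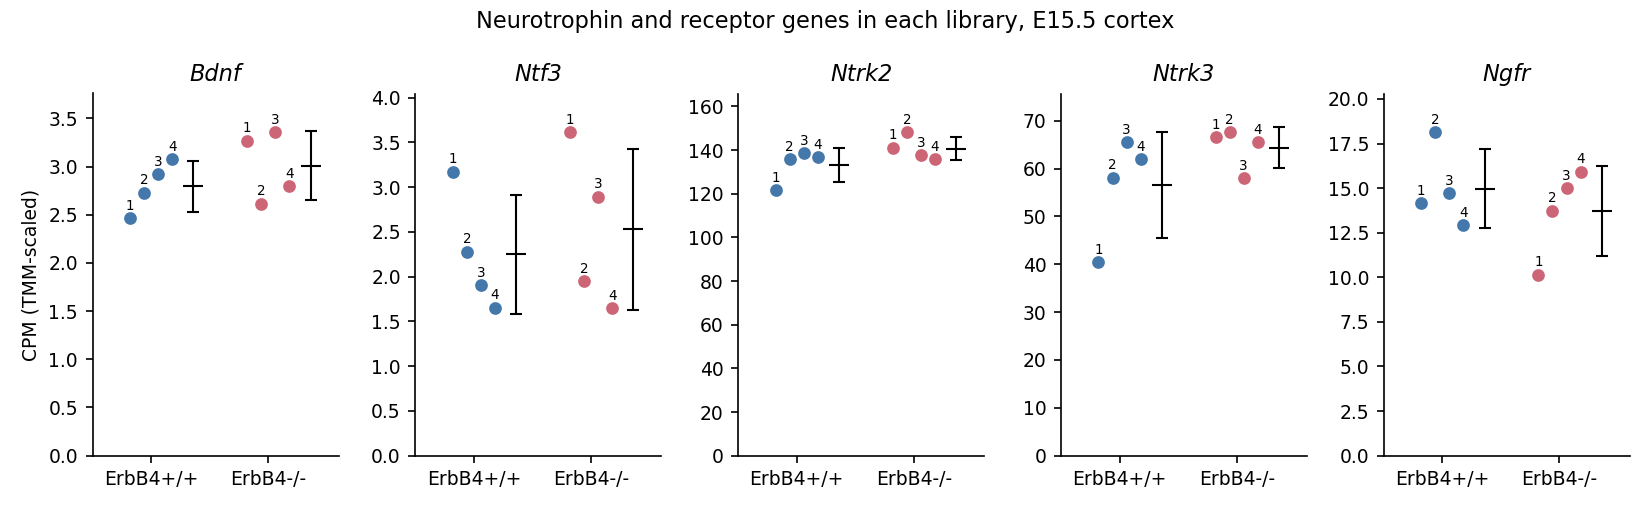
CPM of each gene in each library (numbers are replicates, the black bar is the mean and the whiskers are 1 SD, n = 4). The libraries of the 2 labels overlap in all 5 genes, WT replicate 1 is lowest for Ntrk2 (122 CPM) and Ntrk3 (40.5 CPM), and Ntf3 ranges from 1.65 to 3.61 CPM.

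Ntrk2, which encodes TrkB, was the most counted of the 5 genes, with 3410 to 6952 reads. It lies on the plus strand at chr13:58907957-59235331, with 5 coding transcripts of 2719 to 8541 nucleotides. WT replicates 1 to 4 had 122, 136, 139 and 137 CPM, and KO replicates 1 to 4 had 141, 148, 138 and 136 CPM. Apart from the lower WT replicate 1, the WT libraries lay close together, and KO replicates 3 and 4 lay among them. WT libraries averaged 133 ± 7.81 CPM and KO libraries 141 ± 5.40 CPM (SD, n = 4 each), which edgeR fitted as a log2 fold change of 0.08 ± 0.06 (SE) with an adjusted p of 0.810. This gene had the narrowest interval, a fold change from 0.969 to 1.15. The log2 fold change was 0.04 without WT replicate 1, 0.05 with Xist as a covariate and -0.02 with the length trend removed.

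Ntrk3, which encodes TrkC, lies on the minus strand at chr7:85337248-85723294 and had 1135 to 3280 reads. Its 2 coding transcripts are 2337 and 3300 nucleotides long. WT replicates 1 to 4 had 40.5, 58.1, 65.6 and 61.9 CPM, and KO replicates 1 to 4 had 66.6, 67.6, 58.0 and 65.5 CPM. WT replicate 1 was well below the other 7 libraries, which spanned 58.0 to 67.6 CPM whatever their label. WT libraries averaged 56.5 ± 11.1 CPM and KO libraries 64.4 ± 4.38 CPM (SD, n = 4 each), which edgeR fitted as a log2 fold change of 0.19 ± 0.12 (SE) with an adjusted p of 0.810 with a fold change interval from 0.942 to 1.38. Without WT replicate 1 the log2 fold change was 0.06 (SE 0.07). With Xist as a covariate it was 0.09.

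Ngfr, which encodes p75NTR, lies on the minus strand at chr11:95430132-95449049, has 1 annotated transcript and had 397 to 585 reads. WT replicates 1 to 4 had 14.2, 18.1, 14.7 and 12.9 CPM, and KO replicates 1 to 4 had 10.2, 13.7, 14.98 and 15.9 CPM. WT replicate 2 was the highest and KO replicate 1 the lowest, with the other 6 libraries of both labels mixed between them. It was the only one of the 5 genes with a lower mean in KO libraries, 13.7 ± 2.53 against 14.97 ± 2.23 CPM (SD, n = 4 each). The log2 fold change was -0.13 ± 0.14 (SE), at an adjusted p of 0.846 in edgeR, with a fold change interval from 0.733 to 1.14. Without KO replicate 1 it was -0.01. It was -0.03 without WT replicate 2 and -0.22 without KO replicate 4, and 0.11 with Xist as a covariate.

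Of the 5 genes, 0 reached the adjusted threshold of 0.05 with edgeR, 0 reached an unadjusted p of 0.05, and 0 had groups that did not overlap. Over all tested genes these shares were 0.0272%, 5.53% and 3.34%, the last made up of 1.86% higher and 1.48% lower in KO libraries. DESeq2 and limma-voom also gave 0 of the 5 at either threshold. The exact two-sided permutation test over the 70 assignments of the libraries, whose smallest possible p is 0.0286, gave p = 0.371 for Bdnf, 0.743 for Ntf3, 0.171 for Ntrk2, 0.257 for Ntrk3 and 0.514 for Ngfr. The intervals differ in width, and they leave room for a larger change in Ntf3 than in Ntrk2. Nothing in the sources states that the libraries of a label came from separate litters, and p-values measure only the spread between these libraries, which may be technical.

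Of the other genes of the family, Ntf5, the gene of neurotrophin-4, had 0 to 3 reads per library and was not tested. Nradd, a relative of p75NTR, was at 11.9 ± 0.666 CPM in WT and 10.9 ± 0.528 CPM in KO libraries (SD, n = 4 each). Its groups overlapped, with a log2 fold change of -0.11 ± 0.08 (SE), at an adjusted p of 0.810 in edgeR.

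**Figure D2:**
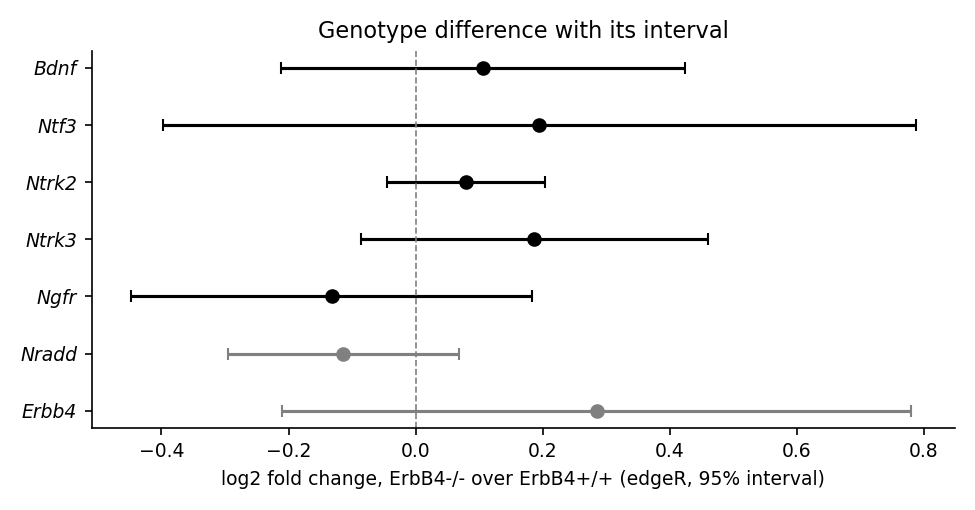
Log2 fold change of the libraries labelled ErbB4-/- over those labelled ErbB4+/+ from edgeR, with 95% intervals, for the 5 genes (black) and for Nradd and Erbb4 (grey). Every interval includes 0, and among the 5 genes it is narrowest for Ntrk2 (-0.05 to 0.20) and widest for Ntf3 (-0.40 to 0.79).

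Levels of different genes were compared as CPM per kilobase of the longest annotated transcript. Ntrk3 was at 18.3 ± 2.69 CPM per kb (SD, n = 8 libraries), Ntrk2 at 16.0 ± 0.867, Ngfr at 4.16 ± 0.671, Ntf3 at 1.67 ± 0.523 and Bdnf at 0.680 ± 0.0736. Among tested genes with a length, these levels lay at the 68.4th, 64.6th, 33.2nd, 21.4th and 13.2nd percentiles. Ngfr, Ntf3 and Bdnf kept this order in all 8 libraries, with no overlap between neighbouring genes. Ntrk3 and Ntrk2 overlapped: Ntrk3 was above Ntrk2 in 7 libraries and below it in WT replicate 1. Their order also depended on which transcript the reads are divided by. The level of Ntrk2 over that of Ntrk3 was 0.875 with the longest transcripts, 0.786 with all exons of each gene, and 1.95 with the shortest coding transcripts, where Ntrk2 was the higher in all 8 libraries. The counts thus do not order TrkB and TrkC transcripts, but both were above Ngfr, and Ngfr above both ligand genes, with each of the 3 lengths.

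**Figure D3:**
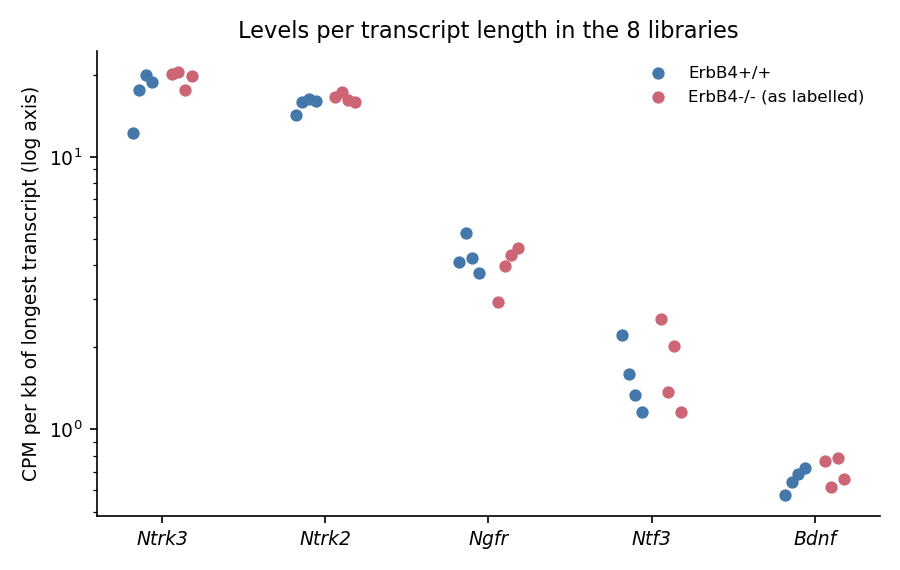
CPM per kilobase of the longest transcript (log axis) for each gene in the 4 libraries of each label. Ngfr (2.95 to 5.26), Ntf3 (1.16 to 2.53) and Bdnf (0.577 to 0.787) occupy separate ranges in the 8 libraries, whereas Ntrk3 (12.3 to 20.5) and Ntrk2 (14.2 to 17.3) overlap.

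Ratios of CPM within a library are free of its scaling factor. Ntrk2 over Ntrk3 was 3.00 in WT replicate 1 and 2.07 to 2.38 in the other 7 libraries. Bdnf over Ntf3 was 0.775, 1.20, 1.53 and 1.86 in WT replicates 1 to 4 and 0.904, 1.34, 1.16 and 1.69 in KO replicates 1 to 4, so that the ratio passed 1 in 6 libraries and stayed below it in replicate 1 of each label. Ngfr over Ntrk2 was 0.0944 to 0.134 in WT and 0.0719 to 0.117 in KO libraries. The difference of mean log2 ratios, KO minus WT, was -0.13 for Ntrk2 over Ntrk3 and -0.02 without WT replicate 1. It was -0.04 for Bdnf over Ntf3 (from -0.28 without WT replicate 1 to 0.14 without WT replicate 4) and -0.22 for Ngfr over Ntrk2 (from -0.31 without KO replicate 4 to -0.08 without KO replicate 1, with -0.13 without WT replicate 2). All 3 ratios overlapped between the labels.

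Across the 8 libraries, 10 pairs among the 5 genes were correlated on log2 CPM. Ntrk2 and Ntrk3 had Pearson's r = 0.91 (exact permutation p = 0.00303, adjusted over the 10 pairs 0.0303) and a Spearman rank correlation of 0.83 (exact permutation p = 0.0154, adjusted 0.154). The relation rested largely on WT replicate 1: r was 0.62 without it, and 0.53 without the libraries farthest from the median of Ntrk2, WT replicate 1 and KO replicate 2. For the other 9 pairs the adjusted permutation p of Pearson's r was 0.582 or higher. Removing from each library its trend with transcript length moved Ntrk2 in WT replicate 1 from 6.93 to 7.27 log2 CPM, from the lowest of the 8 libraries to the highest. Ntrk3 in the same library moved from 5.34 to 5.37 and stayed the lowest.

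**Figure D4:**
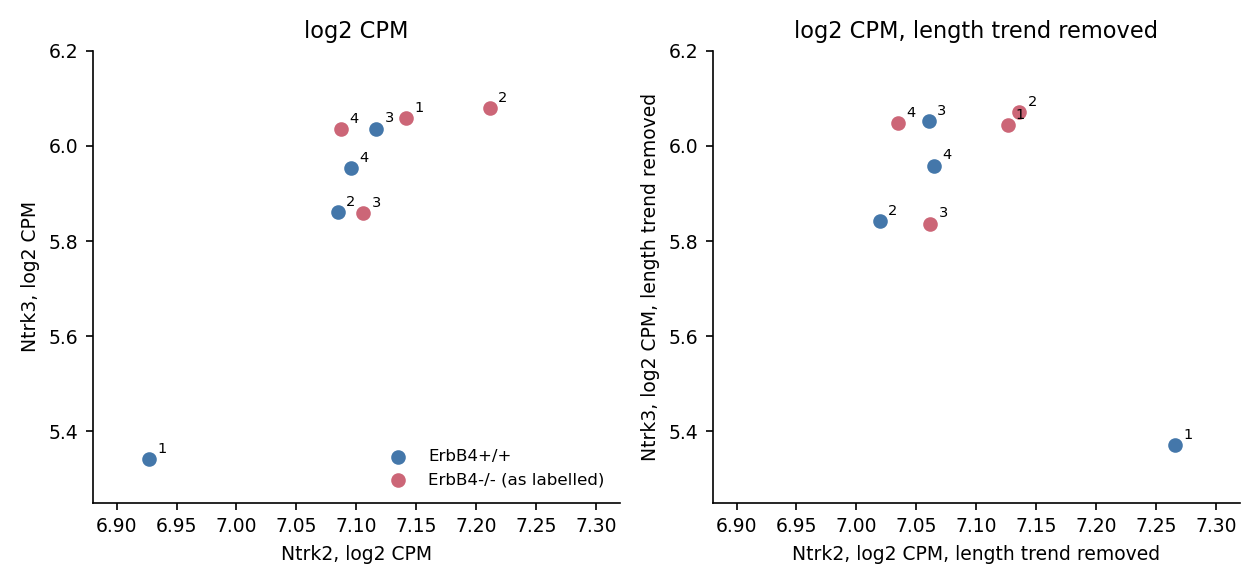
Ntrk2 against Ntrk3 in log2 CPM before (left) and after (right) removal of each library's trend with transcript length, with replicate numbers beside the points. WT replicate 1 lies at the lower left before removal (6.93 and 5.34) and at the lower right after it (7.27 and 5.37).

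The genes closest in pattern to each of the 5 were taken by Pearson's r of log2 CPM over the 8 libraries, among genes with a mean of at least 5 CPM. For Bdnf they were Synm, an intermediate filament gene (r = 0.94), Dse, an enzyme of dermatan sulphate synthesis (0.93), and Vwa5a (0.92). Without the 2 libraries farthest from the median of Bdnf these were 0.94, 0.98 and 0.82. For Ntf3 they were Zbtb2, a zinc finger protein gene (0.97), Prune (0.95) and 6820431F20Rik (0.94), which went to 0.98, 0.94 and 0.83 without the 2 farthest libraries. For Ntrk2 they included Foxred2 and Spnb2, which encodes a spectrin, each at 0.98 and at 0.77 and 0.75 without the 2 farthest libraries. For Ntrk3 they were Mlxip, a transcription factor gene (0.99), Arhgap21, a GTPase-activating protein gene (0.99), and Ncoa6, a coactivator gene (0.98), which went to 0.83, 0.86 and 0.79. For Ngfr they were Kpna2, an importin gene (0.93), Kcnn2, a potassium channel gene (0.93), and Wasl, a regulator of actin assembly (0.92), which went to 0.79, 0.80 and 0.63. WT replicate 1 was among the libraries left out for each gene but Ngfr. The genes named were taken from the 3 highest of 11330 or 11331 correlations for each gene, the points share libraries and depth, and the values only describe likeness.

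Beyond the 5 genes, 105 genes of neurotrophin signalling were listed by role, of which 103 were tested. An adjusted p under 0.05 was reached by 0 in edgeR's test. An unadjusted p under 0.05 was reached by 6 (5.83%, against 5.53% of all tested genes), 4 of them higher in KO libraries (3.00% of all tested genes) and 2 lower (2.52%). The groups did not overlap in 3 (2.91%, against 3.34% of all tested genes). Both shares were near the background, and without KO replicate 2 the count at an unadjusted p under 0.05 was 2. The median log2 fold change of the 103 genes was 0.03, against -0.002 over all tested genes, and 64 of the 103 were above 0, against 49.2% of all tested genes. With each library's length trend removed, the list medians turned from 0.03 to -0.01 for Trk adaptors and effectors, from 0.02 to -0.03 for p75NTR partners and from 0.02 to -0.01 for Trk trafficking, where the median over all tested genes was -0.02.

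Among 43 tested adaptors and effectors of Trk receptors, 2 passed the unadjusted threshold, both higher in KO libraries, against 5.53% of all tested genes at that threshold and 3.00% higher in KO libraries. Pik3r1, a regulatory subunit of phosphoinositide 3-kinase, had 126 ± 9.54 CPM in WT and 147 ± 13.9 CPM in KO libraries (SD, n = 4 each), a log2 fold change of 0.23 (unadjusted p = 0.0122, adjusted p = 0.810, edgeR). Camk4, a calcium-dependent kinase that acts on CREB, was at 47.0 to 53.9 CPM in WT and 57.3 to 61.1 CPM in KO libraries, without overlap, a log2 fold change of 0.19 (unadjusted p = 0.0105, adjusted p = 0.810, edgeR). With the length trend removed the value for Camk4 was 0.08. Kidins220, a scaffold of Trk receptors and the most abundant gene of the list, had a log2 fold change of 0.14 (SE 0.07).

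Among 15 partners and effectors of p75NTR, Lingo1, a co-receptor, was at 95.1 ± 9.93 CPM in WT and 113 ± 13.8 CPM in KO libraries (SD, n = 4 each), a log2 fold change of 0.25 (unadjusted p = 0.0257, adjusted p = 0.810, edgeR). Ripk2, a kinase that binds p75NTR, was at 4.14, 6.13, 6.62 and 6.89 CPM in WT replicates 1 to 4 and at 4.34 to 4.77 CPM in KO libraries. Here WT replicate 1 was the lowest library of all, and the log2 fold change was -0.39 (unadjusted p = 0.0265, adjusted p = 0.810, edgeR). Maged1 and Arhgdia, the most abundant of this list, had log2 fold changes of -0.07 (SE 0.05) and -0.08 (SE 0.06).

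Among 15 genes of Trk trafficking and turnover, Rab5a, a GTPase of early endosomes, was at 86.5 to 92.6 CPM in WT and 93.0 to 93.9 CPM in KO libraries. These ranges did not overlap, but the log2 fold change was small, 0.07 (SE 0.05, adjusted p = 0.810, edgeR). With Xist as a covariate it was 0.11. Ptprs and Nedd4l, the most abundant here, had log2 fold changes of 0.02 (SE 0.08) and 0.06 (SE 0.05). Of 13 genes that sort and cleave neurotrophin precursors, 0 passed the adjusted or the unadjusted threshold, against 0.0272% and 5.53% of all tested genes. For a list of 13 genes, 0 is near these shares. Cpe and Sort1, which encodes sortilin, had log2 fold changes of 0.01 (SE 0.08) and 0.08 (SE 0.08).

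Among 14 genes known to respond to BDNF, Dusp6, a phosphatase that inactivates ERK, was at 27.98 to 31.7 CPM in WT and 32.4 to 35.9 CPM in KO libraries, without overlap. Its log2 fold change was 0.19 (unadjusted p = 0.0170, adjusted p = 0.810, edgeR). Sst, the gene of somatostatin, was at 120, 107, 82.6 and 98.4 CPM in WT replicates 1 to 4 and at 84.0 to 93.4 CPM in KO libraries, with a log2 fold change of -0.23 (unadjusted p = 0.0330, adjusted p = 0.810, edgeR). With Xist as a covariate the value for Dusp6 was 0.09, and that for Sst was -0.15 with the length trend removed or without WT replicate 1. Homer1, the other most abundant gene, was at 80.7 ± 6.61 and 89.6 ± 6.38 CPM (SD, n = 4 each). In this list, 9 of 14 genes were above 0, against 49.2% of all tested genes. The median log2 fold change of the list was 0.11, against -0.002 over all tested genes. The median moved with single libraries, to 0.009 without KO replicate 1, 0.02 without KO replicate 2, 0.05 without WT replicate 3 and 0.07 without WT replicate 2, and it was 0.05 with Xist as a covariate and 0.07 with the length trend removed.

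**Figure D5:**
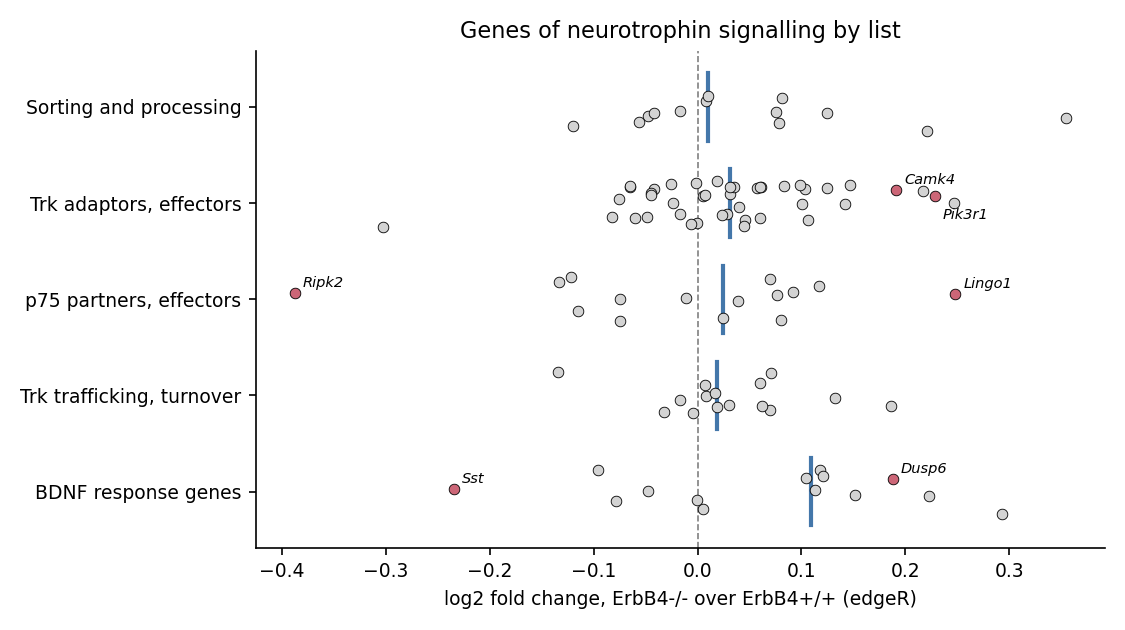
Log2 fold change from edgeR of each tested gene of the 5 lists of signalling genes, with genes at an unadjusted p under 0.05 in red and each list's median as a blue bar (vertical position within a list is arbitrary). Genes lie on both sides of 0 in every list, and list medians run from 0.01 (sorting and processing) to 0.11 (BDNF response genes, 0.009 without KO replicate 1).

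Cell type markers were given beside these values. Of 8 radial glia and progenitor markers, 0 had a log2 fold change above 0 (49.2% of all tested genes), with a median of -0.16, and Pax6 (-0.27), Nes (-0.23) and Vim (-0.19) had an unadjusted p under 0.05 in edgeR's test (5.53% of all tested genes). Their summed level was 2113 to 2680 CPM in WT and 2088 to 2373 CPM in KO libraries. Of 5 oligodendrocyte lineage markers, all were above 0 (49.2% of all tested genes). Sox10 (0.61) and Pdgfra (0.31) had an unadjusted p under 0.05 in edgeR's test (5.53% of all tested genes). The groups did not overlap in Sox10 (3.34% of all tested genes). Cspg4 (0.18), Olig1 (0.11) and Olig2 (0.02) did not reach that threshold, and their groups overlapped. The summed level of the 5 markers was 49.9 to 65.1 CPM in WT and 56.7 to 71.9 CPM in KO libraries. Of 7 astroglial markers tested, 5 were above 0, with a median of 0.09, and Gfap was at 0.738 ± 0.159 CPM in WT and 1.51 ± 0.565 CPM in KO libraries (SD, n = 4 each), with overlapping groups, a log2 fold change of 1.04 (SE 0.30), unadjusted p = 0.00454 and adjusted p = 0.810 in edgeR's test. Meningeal markers summed to 13.8 to 16.7 and 13.2 to 21.7 CPM, and interneuron and ganglionic eminence markers to 470 to 631 and 465 to 636 CPM. Among 7 red blood cell markers, 3 were tested, with a median of -1.23 and summed levels of 31.3 to 55.4 CPM in WT and 19.96 to 34.9 CPM in KO libraries. Of these, the embryonic globin genes Hbb-y (26.6 ± 9.14 against 8.20 ± 6.89 CPM) and Hba-x (6.24 ± 0.955 against 2.71 ± 1.63 CPM) were lower in KO libraries (SD, n = 4 each), at unadjusted p = 0.00271 and 0.00221 and adjusted p = 0.810 and 0.740 in edgeR's test, with overlapping groups. The third, Alas2, an enzyme of haem synthesis, was at 11.95 ± 1.115 and 13.8 ± 2.43 CPM (SD, n = 4 each), a log2 fold change of 0.21 (SE 0.13). The adult globin genes Hba-a1 and Hba-a2 had 0 counted reads. The annotation and counting mode are not given, so this does not show that their RNA was absent. The part of these differences in the values of the 5 genes was not tested.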

How the data were processed

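The authors sequenced unstranded cDNA libraries of polyA-selected RNA as single ends, aligned the reads with HISAT to the mm9 genome and obtained counts with HTSeq-count. The deposited files hold raw counts, 1 whole number per gene symbol and library. The annotation, counting mode and tool versions are not given in the sources used here. The authors' deposited DESeq2 table (fold changes, p-values) was not used, and 0 columns belonged to other samples.

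Genotypes came from the labels. All genes were fitted with edgeR 4.0.16 in R 4.3.3 (TMM, glmQLFit and glmQLFTest, genotype only) after filterByExpr (min.count 10, min.total.count 15) kept 14696 genes, over which p-values were adjusted by the Benjamini-Hochberg method (threshold 0.05). CPM are TMM-scaled, log2 CPM have a prior count of 2, intervals are at 95%, and counting error is the square root of the reads over the reads. Lengths and positions are from the GENCODE annotation of NCBIM37, in which 301 tested genes had no length. The fit was tested on simulated data in which 200 genes had a known change.

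Named are the 5 genes, Erbb4, pathway genes with an unadjusted p under 0.05 or non-overlapping groups, the 2 most abundant genes of each pathway list, the 3 genes most alike in pattern, and defining markers. Xist, Ddx3y, the family genes Ntf5 and Nradd and single markers fall partly outside this rule. The members and lists were chosen with earlier results of these data known. Hras, 1 of the listed genes, was not analysed here, and a few genes that the rule selects are not reported here. Alternatives were DESeq2 1.42.0, limma-voom (limma 3.58.1), other scalings and filters, a prior count of 0.5, a replicate block, Xist as a covariate, removal of the length trend and each library left out. Figures were drawn with matplotlib 3.10.9.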

Additional observations from a re-analysis of the deposited data

How the results depend on the processing

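The 5 genes stayed at 0 calls, adjusted or unadjusted, under each of 17 alternatives to the edgeR fit, with a smallest unadjusted p of 0.0662, for a fit without WT replicate 3. Directions were less stable. With Xist as a covariate, which leaves WT replicate 4 as the only WT library with low Xist, the log2 fold change of Bdnf became -0.031, that of Ngfr 0.11, that of Ntf3 0.54 and that of Ntrk3 0.09. With the length trend removed, that of Ntrk2 became -0.016. Without KO replicate 1, that of Ntf3 became -0.038, and its difference of mean log2 CPM, which ran up to 0.32 without KO replicate 4, became -0.051. Leave-one-out values ran from 0.05 to 0.17 for Bdnf, -0.038 to 0.40 for Ntf3, 0.04 to 0.10 for Ntrk2, 0.06 to 0.27 for Ntrk3 and -0.22 to -0.01 for Ngfr. The causes were not tested. Over all genes, the 4 with an adjusted p under 0.05 became 25 with DESeq2, 2 with the length trend removed, and 1 with RLE, upper-quartile scaling, the replicate block or Xist, and 1 to 13 with single libraries left out (13 without WT replicate 4). The 812 genes at an unadjusted p under 0.05 became 247 with Xist and 430 (without KO replicate 2) to 1394 (without WT replicate 2). The 6 pathway genes at that threshold became 1 with Xist and 2 (without KO replicate 2) to 6 with single libraries left out, 9 with the replicate block and 7 with DESeq2, limma-voom, RLE or upper-quartile scaling. The level of Ntrk2 over Ntrk3 per kilobase, computed for 2 further lengths chosen after seeing the data, moved from 0.875 to 1.95 with the shortest coding transcripts. Deviations of same-numbered WT and KO libraries had correlations of 0.02 to 0.13, 1 of 4 above 0.1. Those of differently numbered libraries ran from -0.19 to 0.15. So few values cannot decide whether the replicate numbers pair the samples. The replicate block gave 0 of the 5 genes at either threshold. Counting errors were 9.96% for Bdnf, 11.3% for Ntf3 and 1.44% for Ntrk2. That of Bdnf was close to its coefficients of variation, 9.48% in WT and 11.97% in KO libraries. For Ntf3 these coefficients were 29.6% and 35.5%, so its spread was larger than counting alone gives.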
